A study of Rattus norvegicus with 8 samples.

Results

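The transcripts described here are those of 9 genes that mark mast cells: the granule proteases Cpa3, Cma1, Tpsb2 and Tpsab1, the surface receptors Kit, Ms4a2 and Fcer1a, the enzyme Hdc and the transcription factor Gata2. They were chosen by gene symbol as markers of the cell type, and each symbol had 1 row among the 32545 genes of the normalized read count table. All 9 were among the 16478 genes tested, for which 2 or more libraries had to hold 10 or more normalized counts. The samples were sciatic nerve segments of outbred female Sprague Dawley (Envigo) rats aged 3 to 6 months. Peripheral nerve allografts (PNAs) were collected 14 days postoperatively (PO) from 3 animals given the PEG-fusion protocol, in which polyethylene glycol, a membrane fusogen, was applied to the sutured nerve ends (PEG). A further 3 PNAs were negative controls that were operated on but not given PEG (NC). Unoperated sciatic nerves of 2 animals served as the baseline (Unop). In both PNA groups host and donor were not tissue matched and no immune suppression was given. The surgery with its hypotonic wash, methylene blue and neurorrhaphy was shared, and the PEG solution was the stated difference between PEG and NC. The library labels began with G in PEG, I in NC and UN in Unop, and what these letters stand for is not known here. Each library is 1 whole nerve segment, and a PNA library can hold transcripts of host and of donor cells together.

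Mast cells are tissue-resident immune cells that store histamine, proteoglycan and proteases in granules and release them when IgE bound to the high-affinity receptor FcεRI is crosslinked, or in response to complement, neuropeptides and tissue damage. They need stem cell factor, the ligand of the receptor tyrosine kinase Kit, to survive. In peripheral nerve they lie in the endoneurium and in the epineurium, often along vessels. Kit is also made by other cells, such as melanocytes and some progenitor cells. Gata2 is also active in endothelium, and Fcer1a, Ms4a2 and Hdc are shared with basophils.

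Because the GATA factors that act in mast cells bind the core letters GATA, the 250 bases before the RefSeq start of each gene (build GRCr8) were searched for AGATAA and TGATAA on both strands. Sequences were held for 8 of the 9 genes, and Ms4a2 was not among them. The letters AGATAA or TGATAA were present in 3 of the 8, namely Cpa3, Cma1 and Fcer1a, beside 16.9% of 33469 promoters of the same length. The 5 shown are those 3, then Tpsb2 as a protease gene without the letters and Kit as the gene whose level moved the other way. Capitals mark the match, which started 55 bases before the start of Cpa3, 64 before that of Cma1 and 93 before that of Fcer1a, where it reads TTATCT and lies on the opposite strand.
Cpa3, chr2:104673238-104673487, minus strand: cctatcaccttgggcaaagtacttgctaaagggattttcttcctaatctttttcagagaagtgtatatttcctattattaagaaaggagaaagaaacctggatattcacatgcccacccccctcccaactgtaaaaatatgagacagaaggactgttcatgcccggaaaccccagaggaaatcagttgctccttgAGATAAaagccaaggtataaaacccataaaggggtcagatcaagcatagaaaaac
Cma1, chr15:33390134-33390383, minus strand: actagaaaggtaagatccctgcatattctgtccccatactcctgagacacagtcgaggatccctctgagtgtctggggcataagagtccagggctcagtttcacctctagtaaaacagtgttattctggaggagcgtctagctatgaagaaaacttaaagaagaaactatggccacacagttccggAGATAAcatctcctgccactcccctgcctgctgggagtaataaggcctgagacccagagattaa
Fcer1a, chr13:88224680-88224929, minus strand: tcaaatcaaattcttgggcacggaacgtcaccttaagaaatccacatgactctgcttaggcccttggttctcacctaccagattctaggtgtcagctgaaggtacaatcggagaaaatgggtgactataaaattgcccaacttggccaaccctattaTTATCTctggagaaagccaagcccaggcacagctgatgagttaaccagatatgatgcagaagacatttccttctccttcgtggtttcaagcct
Tpsb2, chr10:14886060-14886309, plus strand: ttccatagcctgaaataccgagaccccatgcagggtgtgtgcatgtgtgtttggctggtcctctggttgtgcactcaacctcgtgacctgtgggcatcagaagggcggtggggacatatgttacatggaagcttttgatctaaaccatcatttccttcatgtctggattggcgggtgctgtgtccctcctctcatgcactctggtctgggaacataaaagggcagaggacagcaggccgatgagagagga
Kit, chr14:32978813-32979062, minus strand: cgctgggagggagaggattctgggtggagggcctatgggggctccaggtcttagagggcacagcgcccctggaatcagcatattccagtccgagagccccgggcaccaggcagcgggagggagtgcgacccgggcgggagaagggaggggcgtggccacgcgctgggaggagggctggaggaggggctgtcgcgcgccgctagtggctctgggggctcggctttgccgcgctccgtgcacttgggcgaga
A match of 6 letters is a description of the sequence and not evidence of binding. The tryptase genes Tpsb2 and Tpsab1 lie near each other on chromosome 10, and 53.0% of the positions of an alignment of their 250 bases were identical.

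Total reads per library ranged from 32472925 to 39959620 over the 8 libraries. The 9 genes held 12 to 3310 reads per library, and outside Kit they held 12 to 392 reads in the PNAs, so counting error is large for the lowest of them. NC 1 and NC 3 stood apart by skeletal muscle transcripts (18281 and 7356 reads per 1000000 reads, RPM, summed over 6 markers, against 85.1 to 821 in the other 6 libraries), and results that involve the NC group are therefore also given without both of them where that changed a direction.

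Transcripts of the granule proteases were several-fold lower in both kinds of PNA than in unoperated nerve. Cpa3 (ENSRNOG00000011181), the mast cell carboxypeptidase A, had 182, 366 and 113 normalized counts in the 3 PEG-fused PNAs, 279, 128 and 273 in the 3 NC PNAs, and 3552 and 1463 in the 2 Unop nerves. Every PNA lay below both Unop nerves, while the PEG and NC ranges overlapped. The log2 fold change was -3.53 ± 0.57 (SE; adjusted p = 0.000902, limma) in PEG vs Unop, an 11.6-fold difference, and -3.41 ± 0.57 (adjusted p = 0.000878, limma) in NC vs Unop, a 10.6-fold difference. The Unop nerves differed from each other by 2.43-fold, and the size of the decrease rested on which of them was used. Without Unop 1 the log2 fold changes were -2.90 and -2.77, and without Unop 2 they were -4.17 and -4.05, all with adjusted p under 0.05. In these bulk samples, fewer mast cells and less RNA per mast cell cannot be told apart.

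Cma1 (ENSRNOG00000020563) encodes chymase, a serine protease of connective tissue mast cells. Its counts were 84.3, 243 and 69.4 in PEG, 115, 101 and 174 in NC, and 2668 and 1475 in Unop. It was lower in PEG than in Unop, with a log2 fold change of -4.13 ± 0.52 (adjusted p = 0.000244, limma), and fell by 3.96 ± 0.52 in NC vs Unop (adjusted p = 0.00023, limma). Only 1.95% of tested genes had a lower log2 fold change than Cma1 in PEG vs Unop, and 2.62% did in NC vs Unop.

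The tryptases, which are stored as tetramers bound to heparin, were lower in the PNAs as well. Tpsb2 (ENSRNOG00000018611) had 138, 215 and 93.8 counts in PEG, 53.6, 77.5 and 119.6 in NC, and 925 and 775 in Unop. Tpsab1 (ENSRNOG00000024181) had 89.0, 186.04 and 67.5 in PEG, 74.2, 90.4 and 107 in NC, and 537 and 449 in Unop. For both genes the PNAs lay wholly below the Unop nerves. Tpsb2 was 5.98-fold lower in PEG (log2 fold change -2.58 ± 0.40, adjusted p = 0.000751, limma) and 10.6-fold lower in NC (-3.40 ± 0.40, adjusted p = 0.000118, limma). The decreases of Tpsab1 were 4.69-fold in PEG (-2.23 ± 0.39, adjusted p = 0.00143, limma) and 5.43-fold in NC (-2.44 ± 0.39, adjusted p = 0.000705, limma). The tryptase genes are close relatives, and reads that matched both could have been assigned to either or dropped by the counting.

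**Figure D1:**
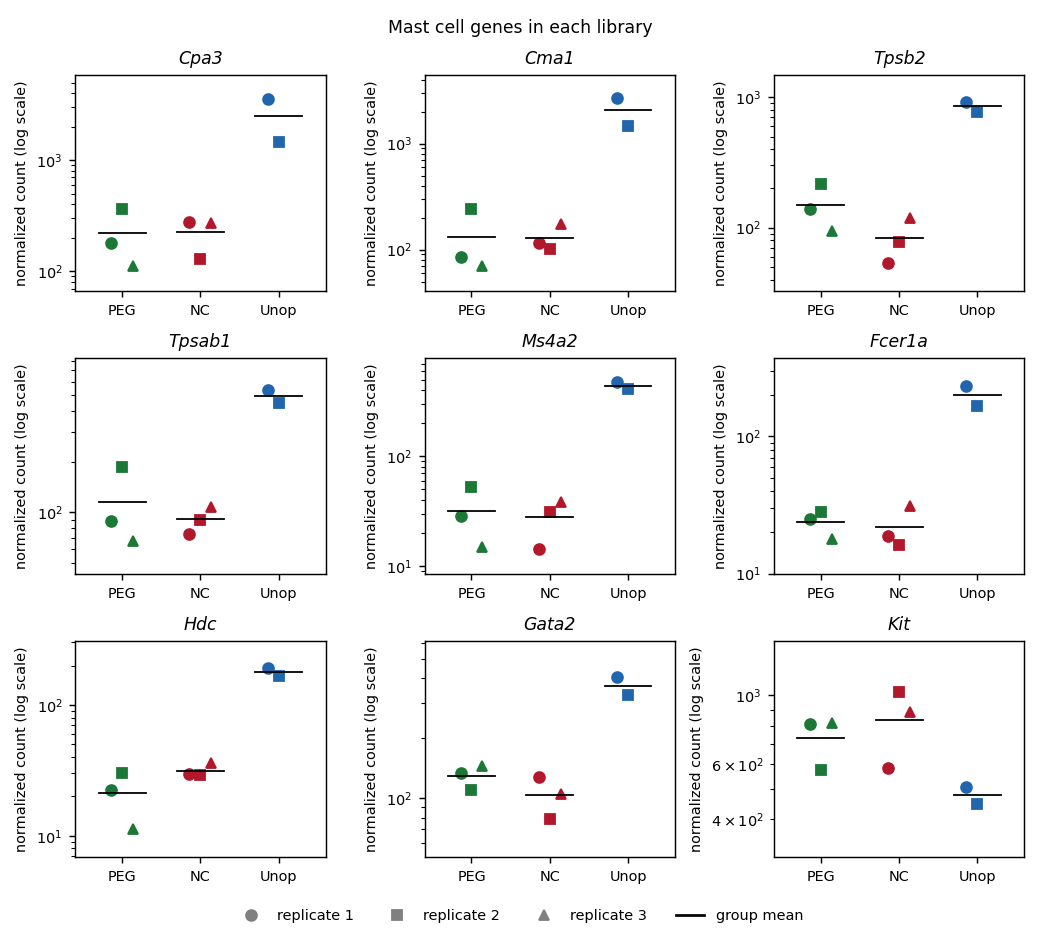
Normalized read counts (log scale) of each of the 9 mast cell genes in the 3 PEG, 3 NC and 2 Unop libraries, 1 panel a gene, with the replicate as the marker shape and the group mean as a line. Outside Kit every PNA lies below both Unop nerves, for Cpa3 at 113 to 366 counts against 1463 and 3552, whereas the Kit points of both PNA groups lie above those of Unop.

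The IgE receptor chains were at low counts in every PNA. Ms4a2 (ENSRNOG00000020993), the β chain that amplifies the signal of FcεRI, had 28.7, 52.4 and 15.0 counts in PEG, 14.3, 31.2 and 38.6 in NC, and 477 and 408 in Unop. Fcer1a (ENSRNOG00000009177), the α chain that binds IgE, had 25.03, 28.0 and 17.8 counts in PEG, 18.8, 16.1 and 30.9 in NC, and 234 and 168 in Unop. Neither gene had a PNA within the Unop range. Ms4a2 was 15.0-fold lower in PEG (-3.91 ± 0.55, adjusted p = 0.000437, limma) and 16.4-fold lower in NC (-4.04 ± 0.55, adjusted p = 0.000273, limma). Fcer1a was 8.21-fold lower in PEG (-3.04 ± 0.36, adjusted p = 0.000166, limma) and 9.01-fold lower in NC (-3.17 ± 0.36, adjusted p = 9.5e-05, limma).

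Hdc (ENSRNOG00000010262), the decarboxylase that makes histamine from histidine, had 22.2, 29.9 and 11.3 counts in PEG, 29.5, 29.0 and 35.7 in NC, and 192 and 168 in Unop. It fell 8.74-fold in PEG (-3.13 ± 0.39, adjusted p = 0.00022, limma) and 5.59-fold in NC (-2.48 ± 0.39, adjusted p = 0.000619, limma). Gata2 (ENSRNOG00000012347), a transcription factor needed for mast cell development, showed the smallest decrease. Its counts were 133, 110.3 and 145 in PEG, 128, 78.5 and 105 in NC, and 406 and 329 in Unop. The PNA values of both genes lay wholly below those of the Unop nerves. Gata2 fell by 1.496 ± 0.24 on the log2 scale in PEG (adjusted p = 0.00098, limma) and by 1.83 ± 0.24 in NC (adjusted p = 0.000241, limma).

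Kit (ENSRNOG00000002227), the receptor for stem cell factor, went the other way. It had 809, 573 and 812 counts in PEG, 584, 1029.5 and 883 in NC, and 508 and 448 in Unop. All 6 PNAs lay above both Unop nerves, by a small margin in PEG 2 and NC 1. Kit was 1.70-fold higher in NC than in Unop (log2 fold change 0.76 ± 0.25, adjusted p = 0.0258, limma). In PEG vs Unop the log2 fold change was 0.60 ± 0.25 and did not pass (adjusted p = 0.0695, limma), and the difference between PEG and NC was -0.16, with a 95% confidence interval of -0.68 to 0.35. Both Kit results were near the threshold. In NC vs Unop the call was lost without NC 2 (0.59, adjusted p = 0.065, limma), NC 3 (0.70, 0.0694), Unop 1 (0.85, 0.0684) or Unop 2 (0.67, 0.131), and in PEG vs Unop the call was gained without PEG 2 (0.76, adjusted p = 0.0362, limma), in DESeq2 (0.61, adjusted p = 0.0402) and when only these 2 groups were fitted (0.60, adjusted p = 0.0283, limma).

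Counted together, 8 of the 9 genes were lower in PEG than in Unop, where 28.6% of all tested genes were called lower, and 1 was not called. In NC vs Unop, 8 were lower and 1 was higher, with 32.3% and 32.2% of all tested genes called lower and higher. All 8 decreases also met the criterion for a differentially expressed gene (DEG), a log2 fold change below -1 with adjusted p under 0.05, as did 15.6% of tested genes in PEG vs Unop and 19.0% in NC vs Unop. The median log2 fold change of the 9 genes was -3.04 in PEG and -3.17 in NC, beside 0.01 and 0.02 for all tested genes. Neither PNA group overlapped Unop for any of the 9, with 8 below Unop and Kit above. Of all tested genes, 37.2% had every PEG library below both Unop nerves and 37.3% had every PEG library above. For NC these shares were 37.4% and 37.2%. These comparisons share the 2 Unop nerves and are not independent of each other. The 8 decreases were called in every setting that was tried, which included edgeR, DESeq2 and each fit with 1 library left out.

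None of the 9 genes was called in PEG vs NC, a comparison in which 28.9% of all tested genes were called. The adjusted p-values ran from 0.121 to 0.879 in limma, and edgeR and DESeq2 also called 0 of the 9. At an unadjusted p under 0.05 the count was 0 in limma and 1 in each of edgeR and DESeq2, which was Tpsb2. The PEG and NC ranges overlapped for all 9 genes. Of all tested genes, 23.3% had every PEG library below every NC library and 25.6% had every PEG library above. Tpsb2 had the lowest adjusted p, at 149 ± 61.3 counts in PEG and 83.6 ± 33.4 in NC (SD, n = 3 each), a log2 fold change of 0.82 with a 95% confidence interval of -0.00 to 1.64 (adjusted p = 0.121, limma). Hdc was at 21.1 ± 9.38 in PEG and 31.4 ± 3.72 in NC, a log2 fold change of -0.64 (interval -1.44 to 0.15). Gata2 differed by 0.34 (interval -0.16 to 0.84).

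For the other protease genes and the receptor chains the estimates lay nearer to 0, but their intervals were wide. The log2 fold change of Cpa3 in PEG vs NC was -0.13 (95% confidence interval -1.29 to 1.04), and that of Cma1 was -0.17 (-1.24 to 0.91). Tpsab1 differed by 0.21 (-0.59 to 1.01), Ms4a2 by 0.13 (-0.999 to 1.25) and Fcer1a by 0.13 (-0.60 to 0.87). With 3 libraries a group, differences in either direction within these intervals remain compatible with the data, which do not show that PEG and NC were alike. Without NC 1 and NC 3, the libraries with muscle transcripts, the signs of 3 genes turned, with 0.61 for Cpa3, 0.15 for Cma1 and -0.13 for Ms4a2, and still none of the 9 was called.

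**Figure D2:**
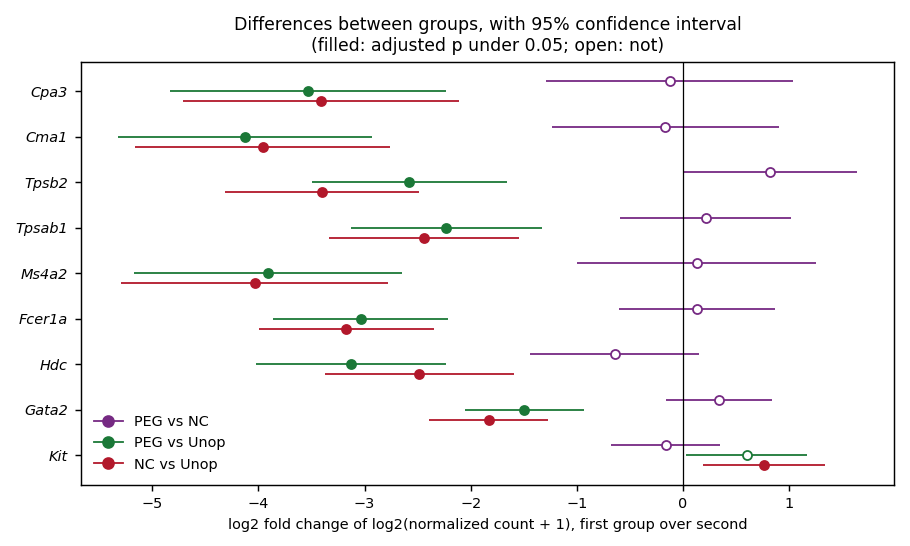
Log2 fold changes of the 9 genes in the 3 comparisons of groups (points) with 95% confidence intervals (bars), filled where the adjusted p was under 0.05 in limma. The 8 genes above Kit lie between -4.13 and -1.496 against Unop, and every PEG vs NC interval includes 0.

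The libraries of a group did not hold the 9 genes at 1 common level, and 7 of the genes ranked the PEG libraries in a similar order. PEG 2 was the highest PEG library and PEG 3 the lowest for the 7 genes other than Kit and Gata2, whereas for Kit and Gata2 PEG 2 was the lowest and PEG 3 the highest. Cpa3 spanned 3.26-fold among the PEG libraries and 2.18-fold among the NC libraries. Unop 1 was higher than Unop 2 for all 9 genes. In the NC group the order was less uniform, with NC 3 highest for 6 genes, NC 1 for 2 and NC 2 for 1. These orders were described after the values were seen and were not tested.

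Each gene was also read against Cpa3 in the same library, a measure that is not affected by the scaling between libraries. Over the 6 PNAs together, Kit and Gata2 stood apart from the other genes. Kit had 1.56 to 8.04 reads per Cpa3 read in the 6 PNAs and 0.143 and 0.306 in the Unop nerves. Gata2 had 0.301 to 1.29 in the PNAs and 0.114 and 0.225 in Unop. The ratio of Tpsb2 was 0.760, 0.587 and 0.833 in PEG, 0.192, 0.605 and 0.438 in NC, and 0.260 and 0.530 in Unop. The ratio of Ms4a2 spanned 0.0513 to 0.244 in the PNAs and was 0.134 and 0.279 in Unop. With the 6 PNAs pooled, the ranges of Tpsb2 and of Ms4a2 overlapped those of Unop, while those of Kit and Gata2 did not. In PEG alone, all Tpsb2 ratios lay above both Unop ratios. The same held for Tpsab1, at 0.490, 0.508 and 0.600 in PEG against 0.151 and 0.307. Those of Cma1 lay below both, at 0.464, 0.663 and 0.617 in PEG against 0.751 and 1.01. The ratios share the Cpa3 reads as denominator and were not tested.

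The genes whose pattern over the 8 libraries was most like that of Cpa3 were found from the root mean square (RMS) difference of their centred log2 normalized counts, over 15748 tested genes with a mean of at least 10 counts. Cma1 was the nearest of all, at an RMS difference of 0.383 on the log2 scale. The nearest 6 outside the 9 genes were the protease gene Mcpt1l1 (0.464), Ntf3 (0.464), which encodes the nerve growth factor relative neurotrophin 3, Rgn (0.488), which encodes the calcium-binding protein regucalcin, Enho (0.510), which encodes the secreted peptide adropin, the antisense transcript Aff1-as1 (0.514), whose reads cannot be told from those of its partner if strand was not used in counting, and Trarg1 (0.518), a regulator of glucose transporter trafficking. Fcer1a had an RMS difference of 0.464, Hdc 0.557, Ms4a2 0.663, Tpsab1 0.678, Tpsb2 0.687 and Gata2 1.01, while Kit was far from Cpa3 at 1.97. All 6 were lower in both PNA groups than in Unop, for example Ntf3 by 4.02 ± 0.39 in PEG and by 3.41 ± 0.39 in NC on the log2 scale (adjusted p = 5.42e-05 and 9.59e-05, limma). They were picked by a profile that holds this contrast, so their decreases are a description.

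Markers of adipocytes and of endothelium were also examined beside the mast cell genes. The 8 mast cell genes other than Kit summed to 21.9, 38.0 and 16.7 RPM in PEG, 20.2, 15.8 and 26.6 in NC, and 209.6 and 129 in Unop. The 6 adipocyte markers summed to 177, 118 and 288 in PEG, 158, 105 and 144 in NC, and 2253 and 1330.2 in Unop. All 6 were called lower in both PNA groups, beside 28.6% and 32.3% of all tested genes in PEG and NC vs Unop. Most of the PNA sum was Fabp4, which was 5.70-fold lower in PEG and 8.55-fold lower in NC, while the other 5 were 95.6- to 550.0-fold lower in PEG. The median log2 fold change of the list in PEG vs Unop was -7.67, against -3.04 for the 9 mast cell genes. Unop 1 was the higher Unop nerve for both sums. In the PEG group the adipocyte sum was highest in PEG 3 and lowest in PEG 2, and the mast cell sum was in the reverse order. Each adipocyte marker was highest in PEG 3. Adipoq (238, 264 and 288 counts in PEG 1, PEG 2 and PEG 3) and Retn (4.63, 8.41 and 26.3) were lowest in PEG 1, and the other markers in PEG 2. The part of these cells in the result was not tested.

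**Figure D3:**
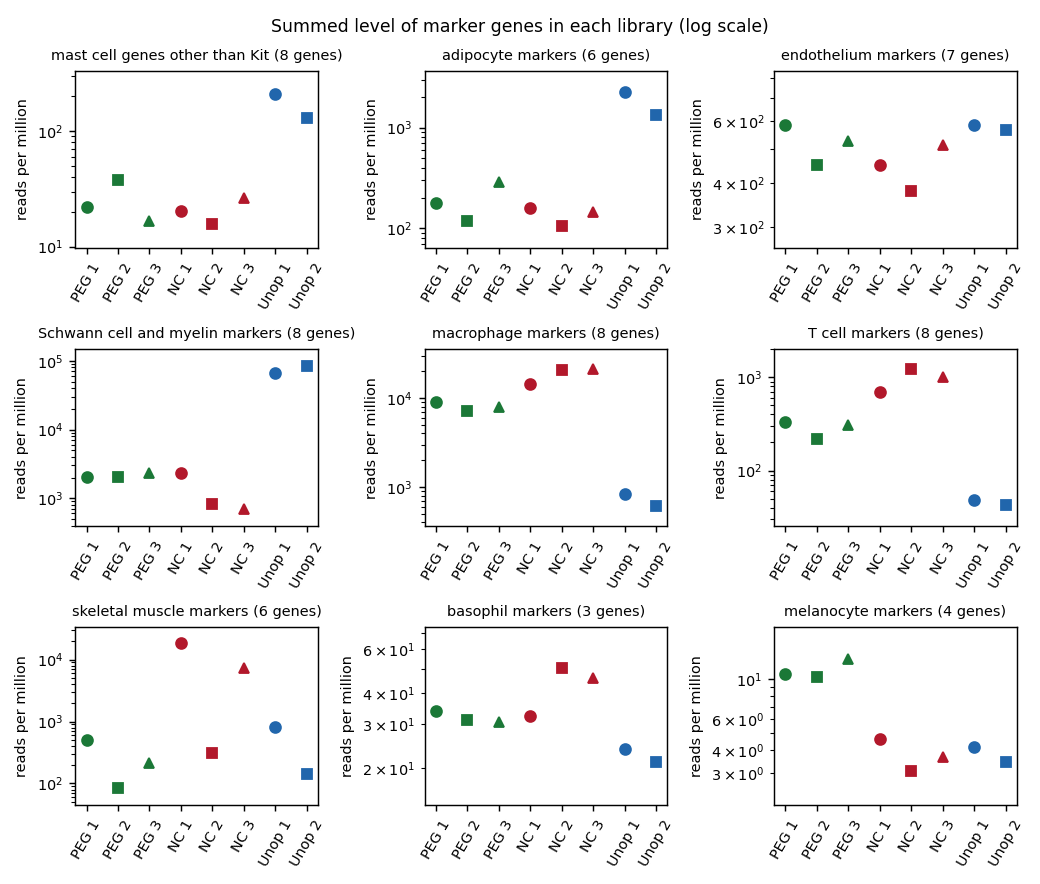
Summed RPM (log scale) of the mast cell genes other than Kit and of 8 marker lists of other cell types in each of the 8 libraries, coloured by group. The mast cell sum is 15.8 to 38.0 in the PNAs and 129 and 209.6 in Unop, the adipocyte sum falls from Unop to the PNAs as well, and the macrophage and T cell sums rise.

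Endothelial markers, which bear on Gata2, summed to 450 to 584 RPM in PEG, 381 to 513 in NC, and 585 and 566 in Unop. In normalized counts, the scale given for Gata2, the sums were 14580 to 18779 in PEG and 13349 to 17013.5 in NC. Both Unop nerves were higher on that scale, at 25105.5 and 23005. Of these, 3 of 7 were called lower in PEG vs Unop, beside 28.6% of all tested genes. In NC vs Unop 5 of 7 were, beside 32.3%. Their part in the decrease of Gata2 was not tested. The 8 myelin and Schwann cell markers were all called lower, from a sum of 67376 and 84066 RPM in Unop to 704 to 2363 in the PNAs. Macrophage markers rose from 613 and 826 in Unop to 7191 to 9125 in PEG and 14498 to 21431 in NC, and T cell markers from 42.5 and 47.8 to 219 to 327 and 701 to 1219. Most of the macrophage sum in the PNAs was Lyz2, at 175468 to 229938 counts in PEG and 437481 to 646889 in NC. Of the 8 macrophage markers, 5 were called lower in PEG than in NC and 0 higher, beside 13.9% and 15.0% of all tested genes. Cd68 had 20030 to 22451 counts in PEG and 14060 to 18968 in NC. The 3 basophil markers summed to 30.7 to 33.9 RPM in PEG, 32.4 to 50.4 in NC, and 23.8 and 21.2 in Unop, and thus did not fall with the mast cell genes. Most of this sum was Il3ra, a cytokine receptor chain found on other cells as well. The basophil protease Prss34 had at most 1.25 normalized counts in any library. Mcpt8l2, another basophil protease gene, had 22.2, 29.9 and 3.75 counts in PEG, 32.2, 45.2 and 29.9 in NC, and 31.1 and 27.5 in Unop, near the counts of Fcer1a and Hdc in the PNAs, and was not called in any comparison. The part of basophils in the PNA counts of Fcer1a, Ms4a2 and Hdc was not tested. For melanocytes, which also make Kit, the 4 markers summed to 10.3 to 12.9 RPM in PEG, 3.07 to 4.61 in NC, and 4.15 and 3.45 in Unop. Tyr, which encodes the enzyme that starts melanin synthesis, had 0 reads in all 8 libraries. The other 3 markers were tested, and some of them were higher in the PNAs, as Kit was. Mlana was called higher in both PNA groups than in Unop, at 10.2 to 27.2 counts in PEG and 13.5 to 15.2 in NC against 1.07 and 1.25 (adjusted p = 0.000805 and 0.000793, limma). Tyrp1, with 136 to 219 counts in PEG, 4.30 to 51.8 in NC, and 40.8 and 12.5 in Unop, was higher in PEG than in Unop (2.79 ± 0.96) and in NC (3.80 ± 0.86). Pmel was higher in PEG than in NC (0.88 ± 0.15) and lower in NC than in Unop (-0.44 ± 0.17). The part of these cells in the level of Kit was not tested.

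Beyond the 9 genes, 65 genes of mast cell function were listed by role, of which 60 were in the table and 48 were tested. In PEG vs Unop, 24 were higher and 10 lower, and in NC vs Unop 28 were higher and 10 lower, beside 29.1% and 32.2% of all tested genes called higher. In PEG vs NC, 7 were higher and 12 lower, beside 15.0% and 13.9%. Many of these genes are made by macrophages, T cells or other leukocytes as well, and the macrophage and T cell sums given above rose in the same libraries. Their part in these increases was not tested.

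Of the other mast cell proteases, 4 of 13 were tested. Mcpt1l1, a chymase-like protease gene, had 241, 581 and 226 counts in PEG, 201, 189 and 404 in NC, and 5963 and 3348 in Unop. It followed the 8 genes, with log2 fold changes of -3.82 ± 0.48 in PEG and -4.16 ± 0.48 in NC (adjusted p = 0.000245 and 0.00011, limma), and 0.35 in PEG vs NC (adjusted p = 0.585). Mcpt2, the chymase of mucosal mast cells, went the other way, from 6.44 and 1.25 counts in Unop to 34.3 to 70.1 in PEG and 63.7 to 141 in NC. Its log2 fold changes were 3.63 ± 0.58 and 4.38 ± 0.58 (adjusted p = 0.000914 and 0.000243, limma), and without Unop 2 they were 2.77 and 3.52, without Unop 1 4.49 and 5.25. Mcpt1l4 was higher in NC, at 23.2, 68.8 and 21.2 counts, than in PEG, at 7.42, 2.80 and 1.88 (log2 fold change of PEG vs NC -2.89 ± 0.59, adjusted p = 0.00864, limma). These genes belong to 1 protease family and some of them had few reads. How reads shared between relatives were counted is not known here, so the split between them is uncertain.

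Kitlg, which encodes stem cell factor, the ligand of Kit, fell in the PNAs while Kit did not. It had 2204, 1772 and 1571 counts in PEG, 1172, 1218 and 1449.9 in NC, and 4469 and 4465 in Unop. The 3 groups did not overlap, from lowest to highest in the order NC, PEG and Unop. The log2 fold changes were -1.29 ± 0.15 in PEG vs Unop and -1.81 ± 0.15 in NC vs Unop (adjusted p = 0.000164 and 1.71e-05, limma). In PEG vs NC it was 0.52 ± 0.14 (adjusted p = 0.0227, limma), a call that was lost without PEG 1, PEG 2, NC 1 or NC 2 (adjusted p up to 0.0606). The alarmin Il33 fell as well, by 0.93 and 0.96 in PEG and NC vs Unop.

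Il1rl1, the receptor of interleukin 33, was high in the PNAs and above all in PEG 2. It had 2744, 9201 and 2306 counts in PEG, 744, 1323 and 1343 in NC, and 306 and 250.1 in Unop. The 3 groups did not overlap, with log2 fold changes of 3.80 ± 0.54 in PEG vs Unop and 1.98 ± 0.54 in NC vs Unop (adjusted p = 0.000481 and 0.0118, limma), and 3.18 in PEG vs Unop without PEG 2. In PEG vs NC it was 1.82 ± 0.49 (adjusted p = 0.0255, limma), 1.20 without PEG 2, and not called without NC 1 (1.54, adjusted p = 0.0657). In NC vs Unop the call was lost without Unop 2 (1.84, adjusted p = 0.0761). The shared cytokine receptor chain Csf2rb was higher in both PNA groups (1.90 and 3.21) and lower in PEG than in NC (-1.31), and the myeloid transcription factor Spi1 likewise (2.69, 3.20 and -0.51), although for Spi1 the PEG vs NC call was lost without any 1 of the 6 PNA libraries (adjusted p 0.0657 to 0.144, limma).

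**Figure D4:**
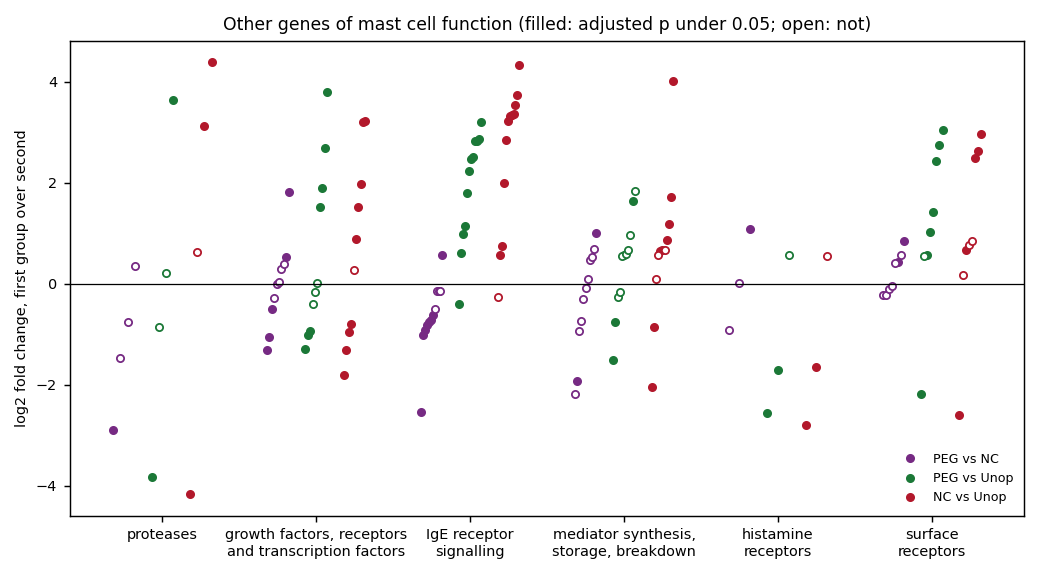
Log2 fold changes of the 48 tested genes of mast cell function outside the 9, by role (x axis) and comparison (colour), filled where the adjusted p was under 0.05 in limma. The IgE receptor signalling genes lie between -0.41 and 4.34 against Unop, mostly above 0. The protease column goes both ways in PEG and NC vs Unop, with Mcpt1l1 at -3.82 and -4.16 and Mcpt2 at 3.63 and 4.38.

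The signalling molecules downstream of the IgE receptor did not follow its α and β chains. Of 12 tested, 11 were higher in PEG than in Unop and 1 was lower, beside 29.1% and 28.6% of all tested genes. The lower 1 was the kinase Fyn (-0.41), a call that was lost without PEG 1, PEG 3 or Unop 2 (adjusted p up to 0.181, limma). In NC vs Unop 11 were higher, beside 32.2% of all tested genes. Fcer1g, the γ chain that FcεRI shares with other Fc receptors, rose from 2673 and 1599.7 counts in Unop to 12325 to 17012 in PEG and 20497 to 23079.7 in NC, with log2 fold changes of 2.87 ± 0.22 and 3.37 ± 0.22. The kinases Syk (3.20 and 3.34) and Lyn (2.50 and 3.31) rose too. Lat, an adaptor also used by T cells, was lower in PEG than in NC, with a log2 fold change of -2.54 ± 0.34 (adjusted p = 0.00179, limma), with 514, 249 and 489.7 counts in PEG and 1777, 3584 and 1939.9 in NC. Also lower in PEG than in NC were Plcg2 (-1.01), Lcp2 (-0.92), Lyn (-0.81), Inpp5d (-0.76), Lat2 (-0.72) and Btk (-0.62), of which Lat2 and Btk were not called without PEG 2. Gab2 was the exception (0.56), and its call was lost when any 1 of PEG 1, PEG 2, PEG 3, NC 1 or NC 2 was left out.

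Genes of mediator storage, synthesis and reception were mixed. Slc18a2, the vesicular transporter that loads histamine and other monoamines into granules, had 883, 1088 and 1111 counts in PEG, 464, 524 and 548 in NC, and 309 and 345 in Unop. It was higher in PEG than in NC by 1.00 ± 0.13 (adjusted p = 0.00137, limma) and higher than in Unop in both groups (1.64 and 0.64). Srgn, the core protein of the granule proteoglycan and also made by leukocytes, was lower in PEG than in NC, with a log2 fold change of -1.93 ± 0.21 (adjusted p = 0.000896, limma). Tph1, which makes the serotonin precursor, fell in NC (-2.04 ± 0.49, adjusted p = 0.00622, limma, and -1.51 without NC 2) and in PEG (-1.51 ± 0.49, adjusted p = 0.0277), where the call was lost without PEG 1, PEG 3, Unop 1 or Unop 2 (adjusted p up to 0.125). Aoc1, the histamine-degrading diamine oxidase, had no read in the Unop nerves and 6.26, 49.5 and 10.6 counts in NC, and was called higher in NC (adjusted p = 0.00254, limma). The histamine receptor Hrh1 fell from 627 and 522 counts in Unop to 181, 158 and 185 in PEG and 107, 64.5 and 77.2 in NC, and the 3 groups did not overlap. Its log2 fold changes were -1.71 and -2.80 against Unop and 1.09 ± 0.21 in PEG vs NC (adjusted p = 0.00653, limma). Hrh3 also fell (-2.56 and -1.65), and the NC call was lost without Unop 1 (adjusted p = 0.0845, limma).

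Among the surface receptors, Cd63, a granule membrane protein found in many cells, was at 49009, 49136 and 51606 counts in PEG, 27278, 28367 and 27906 in NC, and 27057 and 22467 in Unop. The PEG libraries lay above the other 5, and PEG vs NC was 0.84 ± 0.11 (adjusted p = 0.0015, limma). The complement receptors C3ar1 (3.05 and 2.62) and C5ar1 (2.75 and 2.96) were higher in both PNA groups than in Unop. C3ar1 was also higher in PEG than in NC (0.43), a call lost without PEG 1, PEG 2 or NC 2 (adjusted p up to 0.0946, limma). The prostaglandin receptor Ptger3 was lower (-2.18 and -2.61), and its PEG vs Unop call was lost without Unop 1 (adjusted p = 0.0946, limma).

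Of the 19 genes outside the 9 that were called in PEG vs NC, 11 remained called when each library was left out in turn. These were Mcpt1l4, Csf2rb, Lyn, Lat, Lcp2, Plcg2, Inpp5d, Slc18a2, Srgn, Hrh1 and Cd63. The interleukin 9 receptor Il9r was among the other 8, at -1.05 in PEG vs NC, and was lost without PEG 1, PEG 2, NC 1 or NC 2 (adjusted p up to 0.113, limma). Without NC 1 and NC 3 together, which left 1 NC library, Kitlg, Il1rl1, Spi1, Btk and C3ar1 were not called in PEG vs NC.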

How the data were processed

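Poly-A RNA of 8 sciatic nerve segments was sequenced as stranded mRNA libraries. The deposited values are a signal, normalized read counts: the authors aligned reads to Rnor_6.0 (TopHat2), assigned them to Ensembl genes (HTSeq-count; strand setting and versions not given in the sources used here) and divided each library by its DESeq2 size factor. The deposited tables of the authors' own comparisons hold fold changes and p-values and were not used. Whole reads came back from all values within a tolerance of 0.001.

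The 9 genes and all lists were chosen with earlier results of these data known. Of 22798 genes with a read, the 16478 that reached 10 normalized counts in 2 or more of the 8 libraries were tested with limma 3.58.1 (mean-variance trend) on log2(normalized count + 1), with 1 mean per group over all 8 libraries and Benjamini-Hochberg adjustment over all tested genes. A gene was called at adjusted p under 0.05. Fold changes are on the log2(count + 1) scale, and understate changes of low genes. Errors are SE, and intervals use limma's moderated SE.

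Genes outside the 9 were named if they were called in PEG vs NC, had the highest mean of their list, had the largest rise or fall of their list against Unop, or were among the 6 most like Cpa3. Markers of other cell types were named after their values were seen. The alternatives were edgeR 4.0.16 and DESeq2 1.42.0 on the recovered reads, TMM scaling, a pseudocount of 8, no filter, a filter of 50 counts, a fit of only the 2 groups compared, replicate number as a block, each library left out in turn, and, chosen after seeing the data, both NC libraries rich in muscle transcripts left out. The limma and edgeR steps were tested on simulated data. Summed marker levels are in reads per 1000000 (RPM) of the recovered reads. Depth was 32472925 to 39959620 reads per library. The libraries are of separate animals. Symbols of the lists with no row in the table were not analysed here. Promoter letters are from RefSeq (GRCr8), and no coordinate was converted between builds.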

Additional observations from a re-analysis of the deposited data

How the results depend on the processing

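The count of the 9 mast cell genes called stayed within 1.5 times under all alternatives: 0 in every setting for PEG vs NC, and 8 to 9 for each PNA group against Unop. The same held for the 48 other genes (13 to 21 for PEG vs NC, 29 to 37 for PEG vs Unop, 33 to 38 for NC vs Unop). The shares of all tested genes given above are those of the main fit, and none is given for the alternatives. The sign of a PEG vs NC difference that was not called turned in several settings: for Cma1 it was 0.033 in edgeR, 0.024 in DESeq2 and 0.15 without the muscle-rich NC libraries, for Cpa3 0.61 and for Ms4a2 -0.13 without those libraries. With 1 library left out at a time, the range was -0.58 to 0.27 for Cpa3, -0.21 to 0.52 for Tpsab1, -0.72 to 0.18 for Cma1, -0.40 to 0.0080 for Kit, -0.30 to 0.57 for Ms4a2, -0.051 to 0.40 for Fcer1a and -0.092 to 0.70 for Mcpt1l1. The cause was not tested. TMM scaling moved the median of all genes by at most 0.03. With 3, 3 and 2 libraries and 12 to 392 reads per gene outside Kit in the PNAs, small differences between PEG and NC were not detectable.

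Whether same-numbered libraries shared a donor or a batch is not known here, and correlations among so few libraries cannot exclude it. The correlations of same-numbered deviations were 0.11, 0.11 and -0.05 between PEG and NC (replicates 1, 2 and 3), and 0.136 to 0.157 between each PNA group and Unop, which share 2 numbers. Since not all 3 PEG and NC pairs were over 0.1, the numbers were not taken to pair the samples. With the replicate block, 0 of the 9 genes were called in PEG vs NC and 8 in each comparison with Unop, and 15 of the 48 others in PEG vs NC, 31 in PEG vs Unop and 36 in NC vs Unop. These counts are not set against the share of all tested genes called with the block. The call of Kit in NC vs Unop was lost (0.69, adjusted p = 0.0768, limma).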
